A study of Mus musculus with 16 samples.

Results

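Cells make cholesterol and fatty acids from cytosolic acetyl-CoA, and the 30 genes described here carry that synthesis and its control by the sterol regulatory element binding proteins (SREBPs). They were taken by symbol from the 55416 genes of the count table: 7 enzymes of the mevalonate arm, 11 enzymes of the squalene and sterol arm, the sterol carrier Stard4, the 5 genes of SREBP control (Srebf1, Srebf2, Scap, Insig1 and Insig2) and 6 genes of fatty acid synthesis. The genes were listed by name and role, with no cut on measured values but with earlier results of these data known, and each of the 30 symbols matched 1 row. All 30 had a mean normalised count above 10 in every comparison and so entered every test.

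SREBPs are made as precursors in the membrane of the endoplasmic reticulum, where the escort protein Scap binds them. When sterols are low, Scap carries the precursor to the Golgi, where it is cut and its transcription factor domain is released to the nucleus, and when sterols are high the Insig proteins hold Scap back. SREBP-2, from Srebf2, acts mainly on genes of cholesterol synthesis and SREBP-1, from Srebf1, mainly on genes of fatty acid synthesis, and mTORC1 signalling is known to promote SREBP activity. Maturing erythroblasts shrink, condense the nucleus and remodel their membranes before enucleation. Nprl3 encodes a subunit of GATOR1, an inhibitor of mTORC1, and its introns hold most of the mouse α-globin enhancers.

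RNA-seq was performed on erythroblasts sorted from E13.5 mouse foetal livers by Ter119 and CD71 into an early fraction, S1, and a later fraction, S3. The comparisons ask how these genes change as erythroblasts mature and whether loss of Nprl3 alters their level at each stage. Each of 8 embryos gave 1 library per stage, 16 libraries in all: wild-type (WT) embryos 0, 1, 5 and 8, heterozygous Nprl3+/- embryos 3 and 4, and homozygous Nprl3-/- embryos 2 and 9. Embryos 1, 2 and 5 were labelled female and the other 5 male, so both Nprl3+/- embryos were male. The allele is a constitutive deletion of the Nprl3 promoter region, carried in all cells of the embryo on a C57BL/6J background, and it leaves the α-globin enhancers in place. It is not restricted to erythroblasts. No other allele and no treatment was named for any group. The tissue label reads ES-E14TG2a, an embryonic stem cell line, while the titles and the sorting protocol name foetal liver, and erythroid markers were high as given below. Small numbers of cells were sorted per library and their RNA was amplified.

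Library totals ran from 20666044 to 37609502 assigned reads. Levels are given as CPM, counts per unit of library size after TMM scaling, which sets the bulk of genes level across libraries. Nprl3 itself stood at 27.5, 22.6, 24.1 and 32.6 CPM in the WT S1 libraries, at 12.7 and 12.98 CPM in Nprl3+/- and at 0.319 and 0.676 CPM in Nprl3-/-. At S3 Nprl3 counts stood at 107 and 111 CPM in Nprl3-/- and at 164, 146, 146 and 204 CPM in WT. They stood at 146 and 118 CPM in Nprl3+/-, so all S3 libraries held reads over Nprl3 exons. The paper states that spliced, non-coding transcripts from the enhancers confound the measurement of Nprl3 mRNA. Its promoter-specific droplet PCR assay detected no Nprl3 mRNA in Nprl3-/- cells. The S3 counts are thus not a measure of promoter-derived Nprl3 mRNA. The summed level of 7 late erythroid markers, globins included, was 605 to 5418 CPM at S1 and 95430 to 125588 CPM at S3, and that of Kit, Myb, Gata2 and Cd34 was 158 to 224 CPM at S1. The S1 libraries of WT embryos 0 and 8, the male WT embryos, stood apart. Their 8 neutrophil markers summed to 190.3 and 115 CPM against 1078 to 1566 CPM in the other 6 S1 libraries, and their 10 hepatoblast markers to 361 and 330.3 CPM against 23.6 to 178 CPM. The 7 late erythroid markers summed to 5418 and 5126 CPM in them, against 605 to 1716 CPM in the other 6.

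RefSeq promoter windows were at hand for 24 of the 30 genes, 32 windows in all, since some genes have more than 1 start. The entry for Scd1, Scd2, Stard4, Fdft1, Fdps and Sqle is missing. The 250 bases before each start were searched on both strands for TCACNCCAC, a sterol regulatory element, for CCAAT, the core bound by NF-Y, which works beside SREBPs, and for GGGCGG, the core bound by Sp1. TCACNCCAC occurred in 1 of the 32 windows, that of Hmgcs1, and in 1.05% of all 32851 windows in the table. CCAAT occurred in 20 of the 32 windows (62.5%) against 33.8% of all windows, and GGGCGG in 23 (71.9%) against 32.7%. All 5 genes with a window that were higher at S3 in WT held CCAAT, as did 7 of 11 that were lower and 7 of 8 that were not called.
The 6 stretches below are shown because they cover the sterol element, both directions of change and windows with no match. Capitals mark TCACNCCAC and CCAAT, the latter read as ATTGG on the opposite strand, and each is written 5′ to 3′ on the strand of its gene. Positions are in GRCm39, where each window from the GRCm38.p6 table matched exactly, and bases that fall in an exon of a protein-coding gene are left out. They are chr13:120151637-120151886 on the plus strand for Hmgcs1, chr15:82031220-82031381 on the plus strand for Srebf2, chr5:28276160-28276314 on the plus strand for Insig1, chr11:120715403-120715623 on the minus strand for Fasn, chr11:84086014-84086263 on the plus strand for Acaca and chr3:129325785-129326003 on the plus strand for Elovl6.
Hmgcs1: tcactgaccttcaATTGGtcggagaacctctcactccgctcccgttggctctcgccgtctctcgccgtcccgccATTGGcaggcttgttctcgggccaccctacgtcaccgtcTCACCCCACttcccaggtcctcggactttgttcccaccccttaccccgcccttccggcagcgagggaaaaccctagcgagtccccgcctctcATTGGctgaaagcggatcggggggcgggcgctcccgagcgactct
Srebf2: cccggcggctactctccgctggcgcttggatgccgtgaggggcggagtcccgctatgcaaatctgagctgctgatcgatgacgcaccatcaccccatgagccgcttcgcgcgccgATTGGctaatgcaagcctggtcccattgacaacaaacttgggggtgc
Insig1: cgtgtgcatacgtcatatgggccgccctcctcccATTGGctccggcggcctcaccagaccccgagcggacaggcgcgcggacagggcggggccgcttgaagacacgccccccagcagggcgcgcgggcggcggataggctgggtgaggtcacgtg
Fasn: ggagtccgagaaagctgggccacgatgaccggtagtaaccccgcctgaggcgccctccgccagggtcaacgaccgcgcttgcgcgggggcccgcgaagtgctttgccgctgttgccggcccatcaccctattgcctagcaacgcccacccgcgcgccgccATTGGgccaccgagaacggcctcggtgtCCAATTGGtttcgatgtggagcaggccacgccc
Acaca: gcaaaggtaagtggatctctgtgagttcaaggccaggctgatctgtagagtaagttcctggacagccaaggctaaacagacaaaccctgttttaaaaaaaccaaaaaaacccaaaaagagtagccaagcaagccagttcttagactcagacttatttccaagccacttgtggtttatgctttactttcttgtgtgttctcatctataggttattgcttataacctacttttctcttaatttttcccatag
Elovl6: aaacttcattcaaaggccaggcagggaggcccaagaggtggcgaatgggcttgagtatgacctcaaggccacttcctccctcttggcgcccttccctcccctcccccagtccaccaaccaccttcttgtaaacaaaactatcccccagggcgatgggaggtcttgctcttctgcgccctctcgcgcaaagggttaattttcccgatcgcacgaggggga
Hmgcs1 holds the sterol element with 3 CCAAT cores, Fasn holds 3 CCAAT cores, Srebf2 and Insig1 hold 1 each, and Acaca and Elovl6 hold none of the 3 motifs in these letters and this window. The window of Acaca lies before an internal start of the gene, within the span given below, and not upstream of its first exon.

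From S1 to S3 in WT, the fatty acid synthesis genes fell while the sterol genes split. All 6 fatty acid genes were lower at S3, by 2.56-fold for Acly to 21.9-fold for Elovl6. Of the SREBP control genes, Srebf2, Insig1 and Insig2 rose and Srebf1 and Scap fell. The sterol carrier Stard4 rose, and in the sterol and mevalonate arms Fdft1, Nsdhl and Mvk rose, Mvd, Lss, Tm7sf2, Sc5d and Dhcr7 fell and the other 10 were not called. Over the 30 genes 7 were higher and 13 lower (edgeR quasi-likelihood test, Benjamini-Hochberg adjusted p under 0.05), against 29.4% higher and 35.6% lower among all 13514 genes tested, so the 30 genes were called about as often as the genes at large. Their median log2 fold change was -0.14 and that of all genes -0.13. With upper-quartile in place of TMM scaling the fold changes of all genes moved up by a median of 0.30 on the log2 scale, and the split became 10 higher and 11 lower, 47.6% of calls higher in place of 35.0%, against 37.3% and 29.1% of all genes. The count of higher genes was 4 without embryo 0 and 4 without embryo 5, against 24.2% and 23.7% of all genes.

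**Figure D1:**
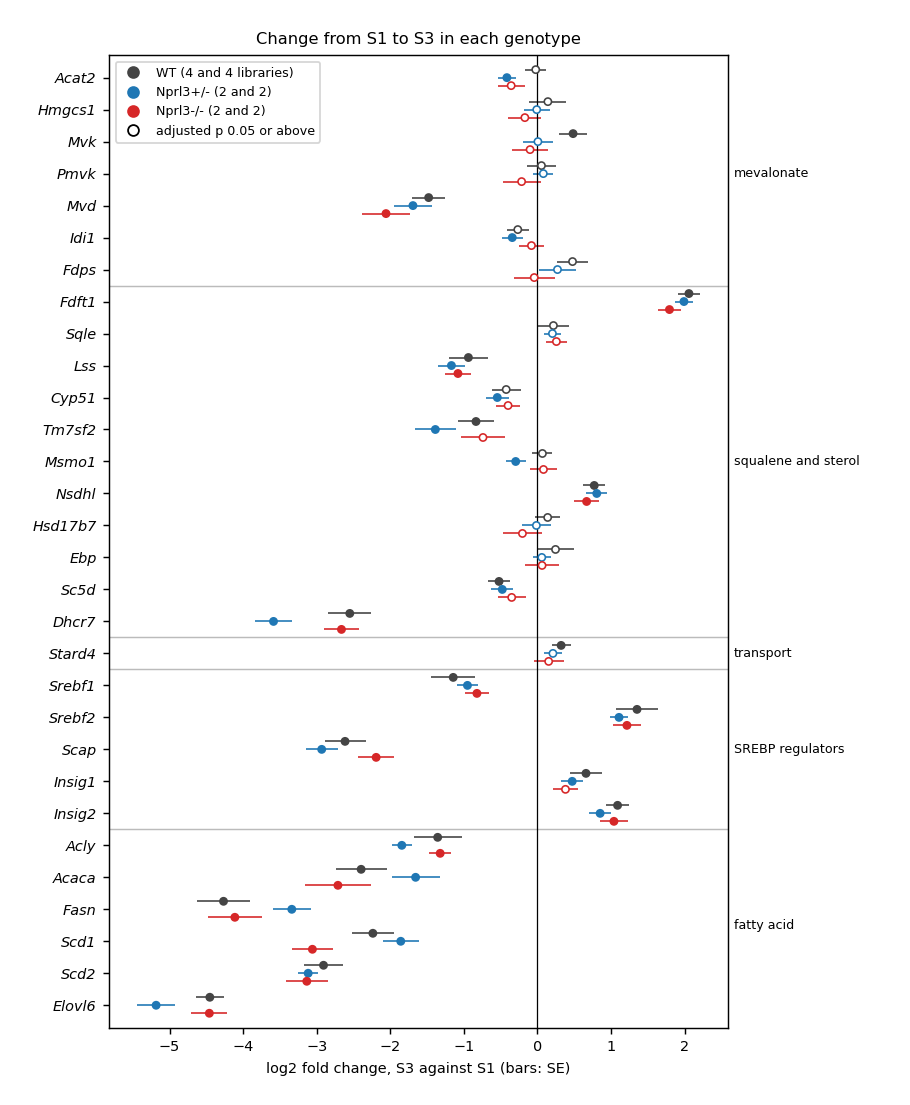
Log2 fold change of S3 against S1 with its SE (horizontal axis) for the 30 genes by role (vertical axis), in WT, Nprl3+/- and Nprl3-/- embryos, with open circles for an adjusted p of 0.05 or above. The 6 fatty acid genes lie left of 0 in each genotype, Fdft1, Nsdhl, Srebf2, Insig1 and Insig2 lie right of 0, and most mevalonate genes lie near 0.

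The fatty acid genes held the largest changes of the 30, those of Elovl6 and Fasn. Elovl6, which lengthens palmitate (ENSMUSG00000041220.11, chr3:129326004-129432144, plus strand), stood at 29.3, 32.1, 26.7 and 29.7 CPM in the S1 libraries of WT embryos 0, 1, 5 and 8 and at 1.10, 1.26, 1.49 and 1.45 CPM in their S3 libraries. The levels were alike among embryos at each stage and far from overlapping between stages, with a log2 fold change of -4.45 (SE 0.19, adjusted p = 1.65e-07). Fasn, the fatty acid synthase that builds palmitate (ENSMUSG00000025153.10, chr11:120696672-120715373, minus strand), went from 34.7, 79.5, 30.2 and 50.0 CPM to 3.46, 2.48, 1.99 and 1.93 CPM. Embryo 1 held the highest Fasn level at S1, but every S1 library lay far above every S3 library, and the log2 fold change was -4.27 (SE 0.36, adjusted p = 3.33e-06).

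Acaca, the acetyl-CoA carboxylase that makes malonyl-CoA for Fasn (ENSMUSG00000020532.19, chr11:84020498-84292477, plus strand), stood at 7.55, 13.2, 7.79 and 9.08 CPM at S1 and 2.83, 1.87, 1.34 and 0.896 CPM at S3. Its S3 levels rest on few reads and spread widely in proportion, yet the stages did not overlap and the log2 fold change was -2.40 (SE 0.35, adjusted p = 0.000142). Acly, which makes cytosolic acetyl-CoA from citrate and so feeds both the sterol and the fatty acid route (ENSMUSG00000020917.18, chr11:100367179-100418826, minus strand), stood at 119, 75.3, 132 and 227 CPM at S1 and 53.4, 39.8, 62.2 and 61.0 CPM at S3. Embryo 8 was high and embryo 1 low at S1, which left a narrower gap between the stages and a log2 fold change of -1.36 (SE 0.33, adjusted p = 0.00398).

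The desaturases put a double bond into newly made fatty acids. Scd2 (ENSMUSG00000025203.7, chr19:44282113-44295303, plus strand), the most abundant of the 6 per unit length at S1, went from 185, 135, 198 and 293 CPM to 32.5, 27.1, 20.3 and 28.1 CPM. Scd1, its neighbour on chromosome 19 (ENSMUSG00000037071.4, chr19:44382894-44396318, minus strand), went from 14.3, 7.97, 14.3 and 18 CPM to 3.00, 2.71, 3.26 and 2.48 CPM. Neither overlapped between stages, with log2 fold changes of -2.91 (SE 0.27, adjusted p = 7.01e-06) for Scd2 and -2.24 (SE 0.28, adjusted p = 5.45e-05) for Scd1. All 6 fatty acid genes kept their call under each of 17 alternative fits. They were also lower at S3 in 8 of 8 embryos of any genotype, a pattern whose share among all genes was not counted.

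The SREBP control genes moved in both directions. Srebf2, which encodes SREBP-2 (ENSMUSG00000022463.9, chr15:82031382-82089580, plus strand), stood at 71.8, 31.8, 65.0 and 78.4 CPM at S1 and 171, 122, 148 and 186 CPM at S3. Srebf1, which encodes SREBP-1 (ENSMUSG00000020538.16, chr11:60089915-60113407, minus strand), stood at 49.1, 28.3, 51.4 and 81.4 CPM at S1 and 24.4, 20.4, 25.4 and 24.8 CPM at S3. Embryo 1 had the lowest S1 level of both genes and embryo 8 the highest, and neither gene overlapped between stages. Srebf2 rose by a log2 fold change of 1.35 (SE 0.28, adjusted p = 0.00158), or 2.56-fold, and Srebf1 changed by -1.14 (SE 0.30, adjusted p = 0.00610), a 2.21-fold fall. Per kilobase of exon the means at S1 were 9.33 ± 3.88 CPM per kilobase for Srebf1 and 8.60 ± 2.88 for Srebf2 (SD, n = 4), and at S3 4.22 ± 0.408 and 21.8 ± 3.90. The 2 genes thus had levels within each other's spread at S1 and well apart at S3. Rai1, which overlaps Srebf1 on the other strand, stood at 9.10 to 12.4 CPM at S1 and 2.00 to 3.22 CPM at S3, and reads from the 2 strands cannot be told apart in these counts.

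Scap, the escort of both SREBPs (ENSMUSG00000032485.15, chr9:110162356-110214018, plus strand), went from 23.3, 17.3, 22.7 and 34.8 CPM to 4.31, 3.79, 4.79 and 2.96 CPM. The stages lay far apart, with a log2 fold change of -2.62 (SE 0.28, adjusted p = 1.63e-05), a 6.13-fold fall. Insig1 and Insig2, which hold Scap in the endoplasmic reticulum, rose. Insig2 (ENSMUSG00000003721.15, chr1:121232082-121260318, minus strand) went from 16.1, 16.2, 18.1 and 14.1 CPM to 29.3, 32.7, 39.8 and 33.4 CPM and Insig1 (ENSMUSG00000045294.12, chr5:28276361-28283660, plus strand) from 20.4, 13.4, 23.2 and 25.9 CPM to 32.0, 33.8, 32.0 and 32.6 CPM. Insig1 was even at S3 and spread at S1, with embryo 1 lowest, and the stages of neither gene overlapped. The log2 fold changes were 1.09 (SE 0.16, adjusted p = 0.000129) for Insig2 and 0.66 (SE 0.21, adjusted p = 0.0193) for Insig1. Insig1 is itself a target of SREBPs. Its call was lost without embryo 0 (adjusted p = 0.0809), without embryo 5 (adjusted p = 0.0670) and in embryos 0 and 8 alone (log2 fold change 0.46, adjusted p = 0.151) in the edgeR test, and that of Srebf1 in embryos 1 and 5 alone (adjusted p = 0.0696).

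**Figure D2:**
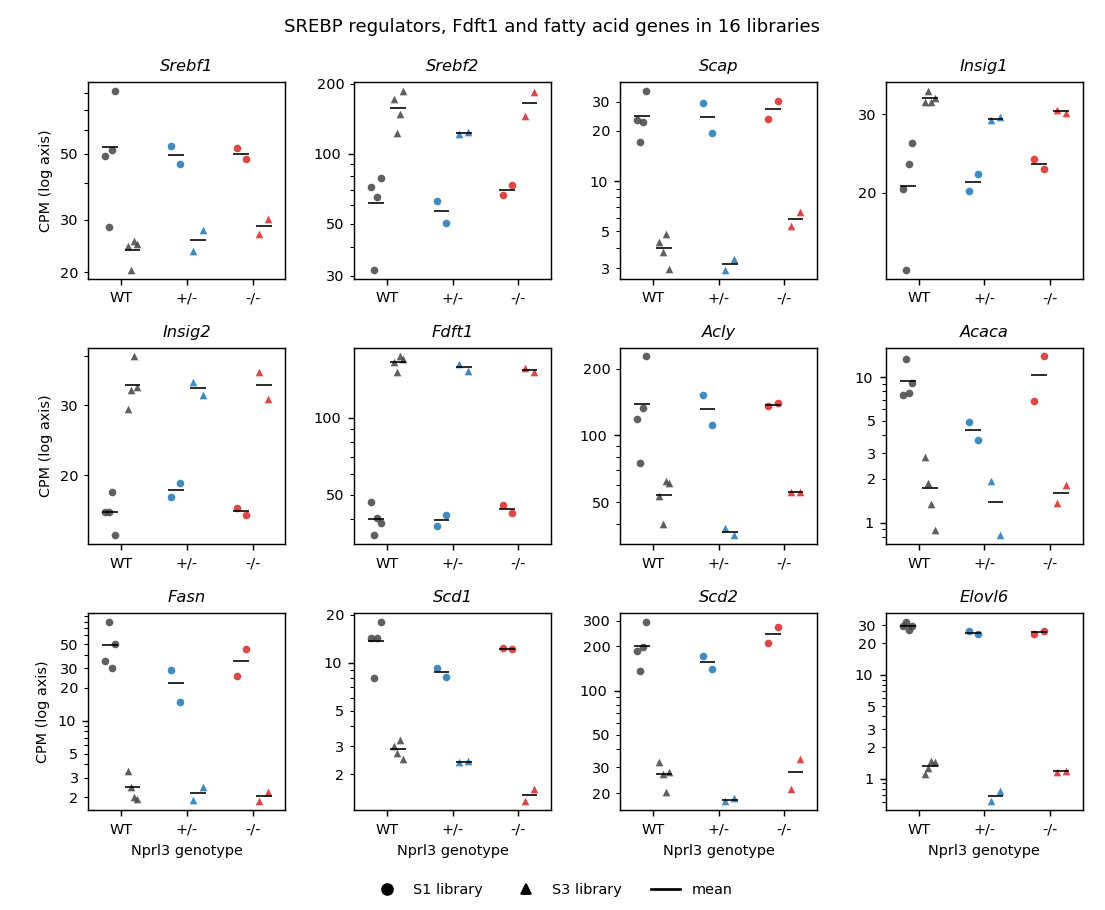
CPM on log axes (each panel has its own) for 12 genes, with circles for S1 libraries, triangles for S3 libraries and a line at the mean, by Nprl3 genotype on the horizontal axis. Srebf2, Insig1, Insig2 and Fdft1 sit higher at S3 and Srebf1, Scap and the 6 fatty acid genes lower, in WT, Nprl3+/- and Nprl3-/- alike.

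In the squalene and sterol arm 2 of 11 genes rose, 4 fell and 5 were not called in WT, 18.2% higher and 36.4% lower against 29.4% and 35.6% of all genes. Fdft1, the squalene synthase that commits farnesyl diphosphate to sterols (ENSMUSG00000021273.12, chr14:63382599-63417027, minus strand), went from 46.7, 34.6, 40.4 and 38.7 CPM to 165, 151, 174 and 169.8 CPM. The embryos lay close together within each stage, and the log2 fold change was 2.06 (SE 0.15, adjusted p = 1.45e-06), or 4.17-fold, the largest rise among the 30. Fdft1 overlaps Ctsb, which encodes the protease cathepsin B, on the other strand. Ctsb stood at 225 to 440.5 CPM at S1 and 4549 to 5886 CPM at S3 in WT, a log2 fold change of 4.01. The counts carry no strand, so reads from Ctsb over exons of Fdft1 cannot be told from reads of Fdft1, and their part in the rise was not tested.

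Nsdhl, a sterol dehydrogenase that removes a carboxyl group during demethylation (ENSMUSG00000031349.5, chrX:71962163-72002120, plus strand), went from 19.9, 19.1, 21.5 and 20.2 CPM to 32.2, 33.3, 38.8 and 31.6 CPM. It was among the most even of the 30 and did not overlap between stages, with a log2 fold change of 0.77 (SE 0.15, adjusted p = 0.000883). Dhcr7, which carries out the last reduction to cholesterol (ENSMUSG00000058454.16, chr7:143376882-143402147, plus strand), went the other way, from 17.7, 12.5, 18.4 and 20.7 CPM to 3.80, 2.34, 1.88 and 3.79 CPM. Its fall of 5.86-fold (log2 fold change -2.55 (SE 0.29, adjusted p = 2.67e-05)) was the largest in the arm, with no overlap between stages.

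Lss, the lanosterol synthase that closes the sterol rings, stood at 25.5, 16.6, 24.7 and 35.3 CPM at S1 and 17.4, 12.6, 11.6 and 11.4 CPM at S3, where the lowest S1 library, that of embryo 1, fell below the highest S3 library. Its log2 fold change was -0.94 (SE 0.26, adjusted p = 0.00904). Tm7sf2, a sterol reductase, and Sc5d, a sterol desaturase, fell by log2 fold changes of 0.83 (SE 0.24, adjusted p = 0.0104) and 0.52 (SE 0.15, adjusted p = 0.00876). Tm7sf2 stood at only 4.36 to 5.02 CPM at S1 and shares part of its span with Vps51 on the same strand, which stood at 34.2 to 36.3 CPM at S3, so its counts are uncertain. In the edgeR test the Sc5d call was lost without embryo 0 (adjusted p = 0.0589) or embryo 5 (adjusted p = 0.0812), and the Tm7sf2 call without embryo 5 (adjusted p = 0.0617). Upper-quartile scaling ended both calls, with a log2 fold change of -0.22 (edgeR adjusted p = 0.224) for Sc5d and -0.53 (edgeR adjusted p = 0.0797) for Tm7sf2, and in embryos 0 and 8 alone their adjusted p by edgeR was 0.124 and 0.164.

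The other 5 genes of the arm did not pass the test. Sqle, the squalene epoxidase that is a rate-limiting step of the arm, stood at 65.3, 51.1, 69.9 and 99.6 CPM at S1 and 85.2, 89.1, 78.6 and 78.9 CPM at S3, with the S3 levels inside the range of the S1 levels. The sterol demethylases Cyp51 and Msmo1 had log2 fold changes of -0.42 (SE 0.20, adjusted p = 0.0791) and 0.07 (SE 0.14, adjusted p = 0.682). Hsd17b7, a sterol ketoreductase, and Ebp, a sterol isomerase, had log2 fold changes of 0.14 (SE 0.17, adjusted p = 0.499) and 0.25 (SE 0.26, adjusted p = 0.423). Cyp51 did not overlap between stages in WT, at 26.5 to 36.9 CPM and 17.6 to 25.7 CPM, while the other 4 overlapped. Akap9, which shares part of the span of Cyp51 on the other strand, stood at 34.0 to 53.5 CPM at S1 and 45.9 to 54.9 CPM at S3. The part of its reads in the Cyp51 counts was not tested. Cyp51 was called lower by edgeR with sex as a covariate (adjusted p = 0.0355), with all 16 libraries in the fit (adjusted p = 0.0175) and in embryos 1 and 5 alone (adjusted p = 0.0399). Stard4, which carries sterols between membranes, stood at 58.4, 53.4, 55.9 and 50.3 CPM at S1 and 61.1, 73.6, 70.5 and 63.9 CPM at S3, higher at S3 in every WT embryo with a log2 fold change of 0.32 (SE 0.13, adjusted p = 0.0455). With the embryo as a block the adjusted p of Stard4 was 0.0560 in the edgeR test, without any 1 embryo it was 0.0649 to 0.210, and in all 8 of 17 alternatives ended its call.

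In the mevalonate arm 1 of 7 genes rose, 1 fell and 5 were not called, 14.3% in each direction against 29.4% and 35.6% of all genes. Mvd, which decarboxylates mevalonate diphosphate (ENSMUSG00000006517.6, chr8:123160340-123170161, minus strand), went from 5.71, 6.08, 7.89 and 4.73 CPM to 2.24, 2.24, 2.22 and 1.86 CPM with a log2 fold change of -1.48 (SE 0.22, adjusted p = 0.000193). Every S3 library lay below every S1 library. Mvk, the mevalonate kinase, went from 5.96, 5.55, 8.22 and 6.51 CPM to 9.42, 9.67, 8.20 and 9.03 CPM, with a log2 fold change of 0.48 (SE 0.19, adjusted p = 0.0430). In embryo 5 the level was nearly the same at both stages, so the stages overlapped. With the embryo as a block the adjusted p of Mvk was 0.0580 in the edgeR test, without any 1 embryo it was 0.0518 to 0.222, and in all 8 of 17 alternatives ended its call.

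Acat2, the thiolase that opens the route, and Hmgcs1, the HMG-CoA synthase whose promoter is shown above, had log2 fold changes of -0.02 (SE 0.14, adjusted p = 0.897) and 0.14 (SE 0.25, adjusted p = 0.640). Acat2 stood at 73.7, 72.8, 75.6 and 67.8 CPM at S1 and 69.4, 83.7, 71.9 and 56.8 CPM at S3, and Hmgcs1 at 13.1, 11.8, 14.3 and 20.4 CPM and 22.1, 14.8, 12.3 and 16.4 CPM. Both overlapped between stages, and so did Pmvk, the phosphomevalonate kinase, with a log2 fold change of 0.05 (SE 0.20, adjusted p = 0.826). The sign for Acat2 turned to 0.28 with upper-quartile scaling, and that for Hmgcs1 to -0.12 without embryo 0. Fdps, the farnesyl diphosphate synthase, was higher at S3 in every WT embryo, at 3.03 to 4.25 CPM and 4.64 to 5.10 CPM, and Idi1, the isopentenyl diphosphate isomerase, lower, at 35.9 to 43.1 CPM and 29.0 to 33.6 CPM. Neither overlapped and neither passed the test, with log2 fold changes of 0.48 (SE 0.21, adjusted p = 0.0724) and -0.27 (SE 0.15, adjusted p = 0.137). Fdps was called higher under 6 of 17 alternatives, with adjusted p of 0.00531 (edgeR, upper-quartile scaling) to 0.0483 (edgeR, RLE factors), both DESeq2 fits included. Sqle was called higher with upper-quartile scaling (adjusted p = 0.0233) and without embryo 8 (adjusted p = 0.0316), Hsd17b7 higher with upper-quartile scaling (adjusted p = 0.0268) and Idi1 lower in the fit of all 16 libraries (adjusted p = 0.0324), each by edgeR. Over the 30 genes 7 lay higher at S3 and 14 lower with no overlap between the WT libraries of the stages, against 27.6% and 32.8% of all genes.

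The sum over each role shows where the level of these genes went. The fatty acid genes summed to 389.9, 343, 409 and 627 CPM in the WT S1 libraries and 96.2, 75.2, 90.7 and 95.9 CPM at S3. The squalene and sterol genes went from 332, 309, 362 and 355 CPM to 449.9, 465, 466 and 442 CPM, and the mevalonate genes stayed between 145 and 187 CPM over the 8 WT libraries. The mean level of Fdft1 differed between stages by more than the mean of the sterol sum did. The other 10 genes of the arm summed to 285, 275, 322 and 316 CPM at S1 and 285, 314, 293 and 272 CPM at S3, which overlap. The counts of Fdft1 may hold reads of Ctsb as given above. Over the embryos of all genotypes the share of the fatty acid genes in the summed level of the 30 went from between 27.9 and 43.7% at S1 to between 6.42 and 9.34% at S3. Libraries of both stages also held reads of marker genes of other cells. The 8 neutrophil markers summed to 115 to 1566 CPM at S1 and 1.11 to 12.9 CPM at S3, and Elane, a protease of promyelocytes, was at most 0.187 CPM at S3. The 10 hepatoblast markers summed to 23.6 to 361 CPM at S1 and 95.0 to 935 CPM at S3, and none of the lists was at 0 in every library. The 11 macrophage markers summed to 10.6 to 38.1 CPM at S1 and 17.9 to 83.8 CPM at S3. The part of these cells in the stage differences was not tested. In bulk libraries fewer cells of a type and less RNA per cell cannot be told apart.

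**Figure D3:**
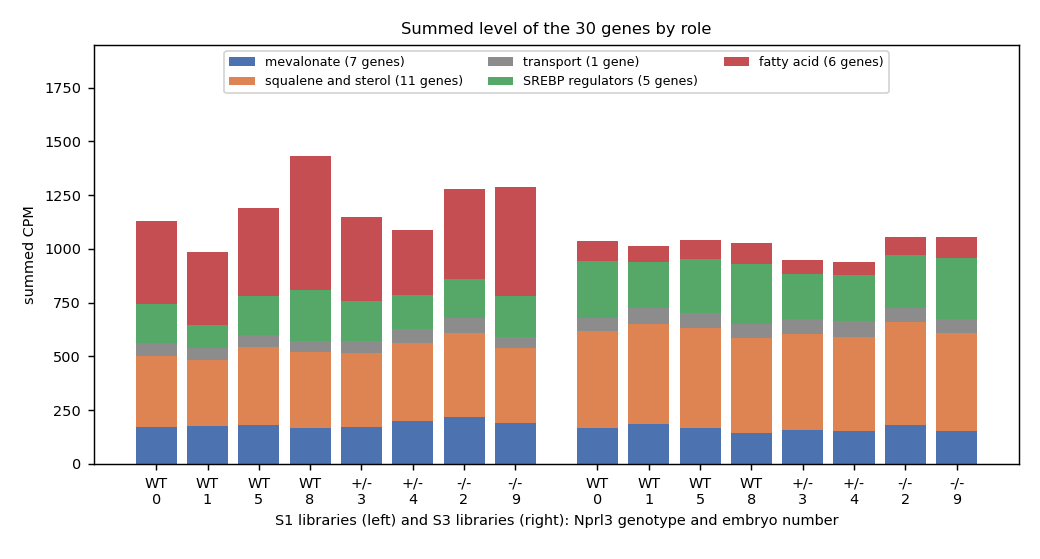
Summed CPM (vertical axis) of the 30 genes in each library (horizontal axis, S1 on the left and S3 on the right), coloured by role. The fatty acid block takes 303.7 to 627 CPM in the S1 libraries and 60.4 to 96.9 CPM in the S3 libraries, while the squalene and sterol block takes 309 to 390.0 and 439 to 478 CPM.

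Per kilobase of exon, the genes with the highest mean level in WT S1 libraries were Scd2 at 37.1 ± 12.1 CPM per kilobase, Acat2 at 28.5 ± 1.31, Acly at 26.2 ± 12.1 and Ebp at 24.01 ± 7.64 (SD, n = 4). The last 3 differed by less than their spread. At S3 the order was Fdft1 at 40.1 ± 2.36, Ebp at 27.9 ± 8.11, Acat2 at 27.7 ± 4.33 and Srebf2 at 21.8 ± 3.90 CPM per kilobase, where Ebp and Acat2 lay within each other's spread. Acaca was the lowest of the 30 at both stages, at 0.551 ± 0.154 and 0.102 ± 0.0487 CPM per kilobase. Its exon length of 17074 bases, over all its annotated exons, is the longest of the 30, and its rank depends on it. In CPM its WT mean was 9.41 at S1, above that of Fdps at 3.50. At S3 it was 1.73, above that of Elovl6 at 1.33. The spread between WT libraries differed by gene. The coefficient of variation at S1 had a median of 20.8% and ran from 4.58% for Acat2 to 46.2% for Acly, and at S3 it had a median of 13.3% and ran from 2.66% for Insig1 to 48.0% for Acaca. Of the 30 genes, 15 had their highest WT S1 level in embryo 8 and 17 their lowest in embryo 1.

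The stage difference was also measured in the mutant embryos. In Nprl3-/- 4 genes were higher and 11 lower at S3, against 22.6% and 30.3% of all 13446 genes tested. The lower count fell without either embryo and the higher count without embryo 9, in fits that left 1 library a stage. The 4 were Fdft1, Nsdhl, Srebf2 and Insig2, with log2 fold changes of 1.80, 0.67, 1.22 and 1.04. The 11 were the 6 fatty acid genes with Mvd, Lss, Dhcr7, Srebf1 and Scap. With the embryo as a block, since both stages come from the same embryos, edgeR called 6 higher and 15 lower, against 29.3% and 38.9% of all genes in the same fit. The added calls were Sqle and Insig1 higher, with log2 fold changes of 0.26 (SE 0.09, adjusted p = 0.0264) and 0.38 (SE 0.13, adjusted p = 0.0189), and Acat2, Cyp51, Tm7sf2 and Sc5d lower, with -0.36 (SE 0.09, adjusted p = 0.00499), -0.40 (SE 0.12, adjusted p = 0.0104), -0.75 (SE 0.30, adjusted p = 0.0473) and -0.36 (SE 0.14, adjusted p = 0.0408). Elovl6 stood at 24.9 and 26.4 CPM at S1 and 1.17 and 1.18 CPM at S3 in Nprl3-/- embryos 2 and 9, with a log2 fold change of -4.46 (SE 0.25, adjusted p = 0.000253). Fasn went from 25.4 and 45.0 CPM to 1.85 and 2.25 CPM, Scd1 from 12.4 and 12.1 CPM to 1.36 and 1.604 CPM and Scap from 23.7 and 30.1 CPM to 5.36 and 6.52 CPM. None of these overlapped between stages.

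In Nprl3+/- 5 genes were higher and 17 lower at S3, against 33.5% and 42.6% of all 13085 genes tested. Elovl6 went from 26.2 and 24.4 CPM to 0.611 and 0.768 CPM in embryos 3 and 4, a log2 fold change of -5.18 (SE 0.26, adjusted p = 8.54e-21), and Dhcr7 from 18.5 and 17.9 CPM to 0.889 and 2.10 CPM, a log2 fold change of -3.59 (SE 0.26, adjusted p = 1.11e-15). The S3 levels of both rest on few reads. Without embryo 3 or without embryo 4 the counts were 3 higher and 10 lower, against 17.9% and 23.7% of all genes without embryo 3 and 18.8% and 24.3% without embryo 4. With upper-quartile scaling they were 9 higher and 12 lower, against 39.0% and 36.4% of all genes, or 42.9% of calls higher in place of 22.7%. Over the 8 embryos, Fdft1, Nsdhl, Srebf2, Insig1 and Insig2 were higher at S3 in every embryo. The fatty acid genes, Mvd, Idi1, Lss, Cyp51, Tm7sf2, Sc5d, Dhcr7, Srebf1 and Scap were lower in every embryo. The share of all genes with the same direction in every embryo was not counted. Within an embryo the S3 level of Fdft1 was 3.45 to 4.38 times the S1 level, that of Srebf2 1.93 to 3.85 times and that of Insig2 1.67 to 2.36 times. The S1 level was 17.9 to 42.8 times the S3 level for Elovl6, 6.08 to 32.1 times for Fasn and 4.42 to 11.7 times for Scap.

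Loss of Nprl3 changed none of the 30 genes past the threshold at either stage. At S1 0 of 30 were called between Nprl3-/- and WT by edgeR, against 0.0% of all 14039 genes called higher and 0.00712% called lower, and 1 of 30 had an unadjusted p under 0.05, against 2.56% of all genes. DESeq2 also called 0 of 30, against 0.204% of all genes higher and 0.0481% lower, and with sex in the model 0 of 30 against 0.92% and 0.315%. The median log2 fold change was 0.15 with 23 of 30 above 0, against a median of -0.0018 over all genes, and the 7 mevalonate genes lay from 0.00 to 0.80. At S3 4 of the 7 mevalonate genes lay above 0 and 3 below, with a median of 0.011. At S1 the 8 neutrophil markers summed to 1525 and 1566 CPM in Nprl3-/- and 190.3, 1306, 1078 and 115 CPM in WT, and their part in these values was not tested. The gene with the smallest p was Mvd, at 11.7 and 9.29 CPM in Nprl3-/- embryos 2 and 9 and 5.71, 6.08, 7.89 and 4.73 CPM in WT. Both mutant libraries lay above all 4 WT libraries, with a log2 fold change of 0.80 (SE 0.26), an unadjusted p of 0.0153, an adjusted p of 1.000 and an exact permutation p of 0.0667, the smallest that 2 against 4 libraries allow.

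The next in order of p at S1 were Acat2, Fdps, Mvk, Msmo1 and Cyp51. Acat2 stood at 96.0 and 84.8 CPM and Fdps at 5.01 and 4.65 CPM in Nprl3-/-, each above all 4 WT libraries, with log2 fold changes of 0.33 (SE 0.15, adjusted p = 1.000) and 0.47 (SE 0.26, adjusted p = 1.000). For Mvk, Msmo1 and Cyp51 the log2 fold changes were 0.38 (SE 0.25), 0.27 (SE 0.20) and 0.25 (SE 0.22), and their libraries overlapped. None of the SREBP control genes passed the test at S1, with log2 fold changes of -0.07 (SE 0.39) for Srebf1, 0.19 (SE 0.35) for Srebf2, 0.14 (SE 0.31) for Scap, 0.16 (SE 0.29) for Insig1 and 0.02 (SE 0.19) for Insig2. None of these shows that the levels were alike: the 95% interval for Srebf1 from the edgeR test, for example, ran from -0.98 to 0.83. With WT embryos 1 and 5 alone, whose neutrophil sums are nearest to those of Nprl3-/-, 0 of 30 were called by edgeR, against 0.0% of all genes higher and 0.0142% lower, and the log2 fold change of Srebf1 was 0.34. At S1 3 genes lay higher and 1 lower with no overlap, against 6.17% and 3.75% of all genes. The 4 were Acat2, Mvd and Fdps above WT and Elovl6 below.

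**Figure D4:**
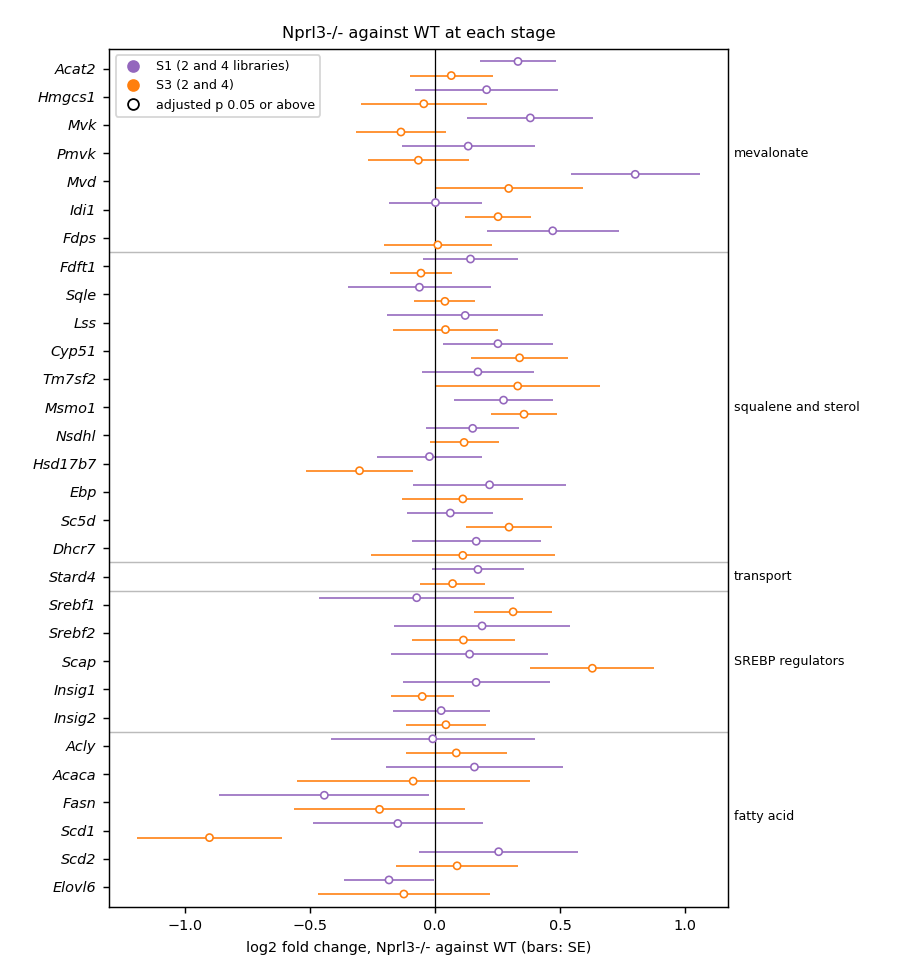
Log2 fold change of Nprl3-/- against WT with its SE (horizontal axis) for the 30 genes by role (vertical axis) at S1 and S3. No gene passes an adjusted p of 0.05, the largest difference at S1 is Mvd at 0.80 and the largest at S3 is Scd1 at -0.90.

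At S3 0 of 30 were called between Nprl3-/- and WT by edgeR, against 0.424% of all 11804 genes called higher and 0.0847% called lower, and DESeq2 called 0 of 30 against 0.992% and 0.744%. With sex in the model DESeq2 called 0 of 30 against 2.57% of all genes higher and 3.14% lower. At an unadjusted p under 0.05 there were 3 of 30, against 8.59% of all genes. They were Scd1, Msmo1 and Scap. Scd1 stood at 1.36 and 1.604 CPM in Nprl3-/- and 3.00, 2.71, 3.26 and 2.48 CPM in WT, with both mutant libraries below all 4 WT libraries and a log2 fold change of -0.90 (SE 0.29, adjusted p = 0.333). Msmo1 stood at 49.7 and 49.1 CPM and 39.0, 43.5, 36.8 and 40.5 CPM, both mutant libraries above all 4, with a log2 fold change of 0.36 (SE 0.13, adjusted p = 0.438). Scap stood at 5.36 and 6.52 CPM and 4.31, 3.79, 4.79 and 2.96 CPM, again above all 4, with a log2 fold change of 0.63 (SE 0.25, adjusted p = 0.504). The 7 late erythroid markers summed to 96697 and 95430 CPM in Nprl3-/- at S3 and 107328, 113588, 119082 and 125588 CPM in WT. The 11 macrophage markers summed to 32.5 and 17.9 CPM and 70.4, 70.5, 83.8 and 37.8 CPM in the same libraries. Both sums lay below those of all 4 WT libraries, and their part in these differences was not tested. The exact permutation p, two-sided, was 0.0667 for Scd1, 0.0667 for Msmo1 and 0.133 for Scap.

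Srebf1, Idi1 and Cyp51 followed at S3, with log2 fold changes of 0.31 (SE 0.16, adjusted p = 0.660), 0.25 (SE 0.13, adjusted p = 0.684) and 0.34 (SE 0.19, adjusted p = 0.726). Srebf1 stood at 26.9 and 30.2 CPM in Nprl3-/- and 24.4, 20.4, 25.4 and 24.8 CPM in WT, a gap of a few CPM with no overlap. Srebf2, Insig1 and Insig2 had log2 fold changes of 0.11 (SE 0.20), -0.05 (SE 0.13) and 0.04 (SE 0.16). The median over the 30 genes was 0.07, and 5 lay higher and 3 lower with no overlap, against 6.57% and 12.1% of all genes. The 8 were Idi1, Cyp51, Msmo1, Srebf1 and Scap above WT and Hsd17b7, Insig1 and Scd1 below. The difference between the S3 against S1 changes of Nprl3-/- and of WT, an interaction term, was called for 0 of 30 genes by edgeR and by DESeq2, against 0.00742% of all 13485 genes higher and 0.0% lower by edgeR and 0.0231% and 0.0324% by DESeq2, and 0 of 30 had an unadjusted p under 0.05 against 2.96% of all genes. The largest was that of Scd1, at -0.80 (SE 0.43, adjusted p = 1.000).

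Nprl3+/- embryos were compared with the same WT libraries. At S1 0 of 30 genes were called by edgeR or by DESeq2, against 0.0% of all 13818 genes by edgeR and 0.0% higher and 0.188% lower by DESeq2, and 2 of 30 had an unadjusted p under 0.05 against 4.2% of all genes. They were Acaca, at 4.89 and 3.70 CPM in embryos 3 and 4 against 7.55, 13.2, 7.79 and 9.08 CPM in WT, and Fasn, at 29.1 and 14.9 CPM against 34.7, 79.5, 30.2 and 50.0 CPM. Both lay below all 4 WT libraries, with log2 fold changes of -1.13 (SE 0.30, adjusted p = 0.907) and -1.14 (SE 0.45, adjusted p = 0.907). The hepatoblast markers summed to 40.4 and 23.6 CPM in Nprl3+/- and 361, 62.2, 77.6 and 330.3 CPM in WT at S1, the macrophage markers to 10.6 and 11.7 and 38.1, 13.2, 17.9 and 19.4 CPM and the late erythroid markers to 729 and 940.0 and 5418, 1084, 1668 and 5126 CPM. All 3 sums lay below those of the 4 WT libraries, as did those of 6 megakaryocyte and 4 endothelial markers, and that of the neutrophil markers lay above. Their part in the differences was not tested. Scd1, Acat2, Idi1 and Ebp followed, with log2 fold changes of -0.67 (SE 0.35), 0.23 (SE 0.15), -0.25 (SE 0.18) and 0.37 (SE 0.28). Srebf1, Srebf2, Scap, Insig1 and Insig2 had log2 fold changes of -0.11 (SE 0.39), -0.14 (SE 0.36), -0.03 (SE 0.33), 0.01 (SE 0.29) and 0.18 (SE 0.18). With no overlap, 1 gene lay higher and 5 lower, against 8.68% and 9.3% of all genes.

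At S3 0 of 30 were called in Nprl3+/- by edgeR or by DESeq2, against 0.0% of all 11746 genes by edgeR and 0.0% higher and 0.00434% lower by DESeq2, and 3 of 30 had an unadjusted p under 0.05 against 3.13% of all genes. Scd2 stood at 17.7 and 18.5 CPM in Nprl3+/- and 32.5, 27.1, 20.3 and 28.1 CPM in WT, Acly at 38.1 and 35.4 CPM and 53.4, 39.8, 62.2 and 61.0 CPM, and Elovl6 at 0.611 and 0.768 CPM and 1.10, 1.26, 1.49 and 1.45 CPM. Each lay below all 4 WT libraries, with log2 fold changes of -0.50 (SE 0.19, adjusted p = 0.918), -0.49 (SE 0.20, adjusted p = 0.918) and -0.86 (SE 0.37, adjusted p = 0.918). The hepatoblast markers summed to 147 and 196 CPM in Nprl3+/- and 935, 292, 211 and 556 CPM in WT at S3, also below all 4 WT libraries, and their part in these differences was not tested. Dhcr7, Idi1 and Pmvk followed with -0.89 (SE 0.45), -0.23 (SE 0.13) and 0.29 (SE 0.17), and Srebf1, Srebf2, Scap, Insig1 and Insig2 had 0.18 (SE 0.16), -0.29 (SE 0.18), -0.25 (SE 0.26), -0.08 (SE 0.12) and 0.04 (SE 0.16). With no overlap, 0 lay higher and 8 lower, against 2.39% and 12.5% of all genes. With sex as a covariate edgeR called 2 genes higher, Pmvk and Ebp, and 4 lower, Hmgcs1, Dhcr7, Srebf2 and Scd2, against 10.4% and 7.29% of all genes. DESeq2 with sex called 2 higher and 4 lower, with Acly in place of Dhcr7, against 15.3% and 10.3%. That fit sets Nprl3+/- beside the male WT embryos 0 and 8, whose S1 libraries stood apart in their markers, so sex and that difference cannot be told apart. Both mutant comparisons share the WT libraries.

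Other genes of the pathway were read from a pair of lists. Of 13 genes for SREBP processing and other lipogenic enzymes, 1 was higher and 7 lower at S3 in WT by edgeR, with a median log2 fold change of -0.57, against 29.4% and 35.6% of all genes and a median of -0.13. Of 10 genes for LXR receptors and for sterol export, storage and trafficking, 4 were higher and 1 lower, with a median of 0.15, against the same shares of all genes. Elovl5, an elongase of polyunsaturated fatty acids, went from 42.7, 38.6, 51.5 and 44.2 CPM at S1 to 5.32, 5.37, 4.22 and 3.03 CPM at S3, a log2 fold change of -3.28 (SE 0.22, adjusted p = 8.78e-07). Tmem97, a sterol-regulated membrane protein, changed by -2.50 (SE 0.22, adjusted p = 4.64e-06). Mylip, a ubiquitin ligase that marks lipoprotein receptors for degradation and is a target of LXR, went the other way, from 3.43, 1.97, 2.01 and 4.44 CPM to 34.4, 25.3, 32.1 and 43.9 CPM, a log2 fold change of 3.52 (SE 0.33, adjusted p = 7.76e-06). None of the 3 overlapped between stages. The proteases that cut SREBPs are named here after their values were seen. Mbtps1, for the first cut, stood at 48.5, 29.5, 42.2 and 86.8 CPM at S1 and 57.0, 39.2, 49.1 and 56.7 CPM at S3, with a log2 fold change of -0.04 (SE 0.32, adjusted p = 0.924). Mbtps2, for the cut that releases the factor, stood at 7.02, 10.9, 5.80 and 5.90 CPM and 1.39, 1.17, 0.9197 and 1.17 CPM, with a log2 fold change of -2.64 (SE 0.28, adjusted p = 1.47e-05).

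Between Nprl3-/- and WT no gene of either list was called at S1 or S3 by edgeR, and Abca1 was too low to be tested at S3. Among all genes 0.0% were called higher and 0.00712% lower at S1, and 0.424% and 0.0847% at S3. At S1 2 of the 23 genes had an unadjusted p under 0.05, against 2.56% of all genes, and are named after their values were seen. Abcg1, a sterol exporter, stood at 3.07 and 4.58 CPM in Nprl3-/- and 1.40, 1.56, 2.62 and 1.73 CPM in WT, with a log2 fold change of 1.08 (SE 0.35, adjusted p = 1.000). Aacs, an acetoacetyl-CoA synthetase, stood at 22.3 and 21.2 CPM and 12.8, 12.5, 17.9 and 16.2 CPM, with a log2 fold change of 0.56 (SE 0.23, adjusted p = 1.000). Both lay above all 4 WT libraries. The 3 with the smallest p at S3 were Nr1h3, Pcyt2 and Elovl1. Nr1h3, which encodes the receptor LXRα, stood at 1.29 and 1.55 CPM in Nprl3-/- and 3.93, 3.60, 5.02 and 2.62 CPM in WT, with a log2 fold change of -1.36 (SE 0.33, adjusted p = 0.180). The macrophage sums given above were also lower in the same Nprl3-/- libraries, and their part in the difference was not tested. For Nr1h3 both mutant libraries lay below all 4 WT libraries. Pcyt2, of phosphatidylethanolamine synthesis, and Elovl1, an elongase of long saturated fatty acids, had log2 fold changes of 0.35 (SE 0.12, adjusted p = 0.381) and 0.47 (SE 0.16, adjusted p = 0.411).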

How the data were processed

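RNA-seq counts of 16 libraries were used as deposited: the authors aligned reads with STAR 2.7.9 to mm39 and counted them per gene with featureCounts 1.6.4 against Ensembl annotation, without strand. Values were raw counts, and 4 count columns of no sample analysed here were not used. CPM were computed from these counts after TMM scaling over the 16 libraries, and CPM per kilobase from exon lengths.

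Groups followed the titles. Genes with a mean normalised count above 10 over the libraries of a comparison were tested with edgeR 4.0.16 (quasi-likelihood test, TMM, defaults) in R 4.3.3, with Benjamini-Hochberg adjustment over all genes tested and a threshold of 0.05. Single values were also tested by a two-sided exact permutation test, which cannot give a p under 0.0667 for 2 against 4 libraries. DESeq2 1.42.0, sex, other scalings and filters, the embryo as a block and leaving out each embryo were alternatives. The scripts were tested on simulated data. The same-numbered libraries of both stages came from the same embryo per the labels; deviations from the group means correlated over 13402 genes at 0.0515 to 0.408 in WT, 0.535 in Nprl3-/- and 0.0710 in Nprl3+/-. Each library is 1 embryo at 1 stage, and in the stage comparisons each embryo gave both stages. The main edgeR fit did not pair them, and it shares variance across genes. Its p-values are therefore not a measure of the spread between embryos alone. This holds most for Nprl3+/- and Nprl3-/-, with 2 libraries per stage.

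Depth was 20666044 to 37609502 reads per library, and without molecular identifiers amplified reads are not independent molecules. In the stage comparisons all 30 genes were named, in genotype comparisons the 6 of smallest p and the 5 SREBP control genes, and in the further lists the 3 of smallest p in WT from S1 to S3 and in Nprl3-/- against WT at S3. The 30 genes and all lists were chosen with earlier results of these data known. Promoter windows are from the RefSeq table of GRCm38.p6.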

Additional observations from a re-analysis of the deposited data

Results flagged for a closer look

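Of 74 groups of 4 libraries tested for a library far from the others by Dixon's test, 2 passed, where chance passes about 1 in 20. The level of Mvd in the S3 library of WT embryo 8 was 1.86 CPM against 2.22 to 2.24 CPM in the other 3, a gap of 0.946 of the range. The level of Hsd17b7 in the S3 library of WT embryo 0 was 12.3 CPM against 9.58 to 9.99 CPM in the other 3, a gap of 0.845 of the range. The cause of either was not tested.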

How the results depend on the processing

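Under 17 alternatives to the WT stage comparison the calls of Acaca, Acly, Dhcr7, Elovl6, Fasn, Fdft1, Insig2, Lss, Mvd, Nsdhl, Scap, Scd1, Scd2 and Srebf2 kept their direction and their side of the threshold. With the embryo as a replicate block Mvk and Stard4 lost their calls in WT and no other WT call moved. The block gave 6 higher and 15 lower in Nprl3-/-, against 29.3% and 38.9% of all genes, and moved no call of the interaction. In WT embryos 0 and 8 alone the calls of Mvk, Stard4, Insig1, Tm7sf2 and Sc5d were lost. That choice, like that of embryos 1 and 5, was made after seeing the data. Leaving out 1 embryo gave 4 to 7 higher genes in WT, 2 to 4 in Nprl3-/- and 3 in Nprl3+/-, with 10 lower there. Upper-quartile scaling gave 9 higher in Nprl3+/-. At S3 the comparison of Nprl3+/- with WT gave 2 higher and 4 lower genes with sex in edgeR and 2 and 4 in DESeq2. The causes were not tested.

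Signs that turned were all of values that did not pass the test. In the WT stage comparison Acat2 turned to 0.018 (DESeq2), 0.013 (DESeq2 with sex), 0.017 (RLE factors), 0.28 (upper-quartile) and 0.059 (embryos 1 and 5), Idi1 to 0.041 (upper-quartile), Sqle to -0.029 (embryos 0 and 8) and Msmo1 to -0.10 (embryos 1 and 5). Leaving out 1 embryo gave -0.12 to 0.060 for Acat2, -0.12 to 0.36 for Hmgcs1, -0.0048 to 0.089 for Pmvk and -0.0072 to 0.12 for Msmo1. For Nprl3-/- at S1, Srebf1 turned to 0.34 (embryos 1 and 5) and Insig2 to -0.00026 (upper-quartile) and -0.065 (embryos 1 and 5), and at S3 Insig2 to -0.0036 (all 16 libraries), -0.0017 (upper-quartile) and -0.030 (embryos 1 and 5). Leaving out 1 embryo gave -0.29 to 0.25 for Srebf1, -0.037 to 0.35 for Srebf2, -0.057 to 0.39 for Scap, -0.0073 to 0.32 for Insig1 and -0.019 to 0.084 for Insig2 at S1, and -0.058 to 0.31 for Srebf2 and -0.042 to 0.16 for Insig2 at S3. For Nprl3+/- at S1, Scap turned to 0.046 (upper-quartile) and Insig1 to -0.17 with sex in either tool, and at S3 Insig2 to -0.029 (all 16 libraries). Leaving out 1 embryo gave -0.32 to 0.23 for Srebf1, -0.37 to 0.030 for Srebf2, -0.36 to 0.24 for Scap and -0.16 to 0.17 for Insig1 at S1, and -0.025 to 0.13 for Insig2 at S3. Where an arm was left with 1 library it was assumed to vary like the others, and no fit with sex was possible within Nprl3+/-, whose embryos are both male.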
